A study of Mus musculus with 6 samples.

Results

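Type I interferon-stimulated genes were examined in Tregs isolated from the BM of mice with chronic myeloid leukemia (CML) and of naive mice. The list holds 36 genes, namely antiviral effectors that type I interferon induces, the regulators of this response and the receptor chains. They were chosen by name and not by a threshold on the values, but with earlier results of these data known. Of the 36 names, 34 matched a row in the deposited values, which hold 36930 features in all, and all 34 were among the 13923 features tested. Mx1 and Mx2 matched no feature name and were not analysed here.

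All 6 mice carried Foxp3-DTR-GFP, in which the Foxp3 locus drives a diphtheria toxin receptor and GFP, and were 8 weeks old. CML was induced in 3 of them by intravenous transfer of syngeneic LSKs, the stem and progenitor cells of the BM, transduced with a BCR-ABL1-GFP retrovirus, and the recipients were not irradiated. Tregs of these mice were taken at day 15 after CML induction, a time given in the supplement of the study and not in the labels, and those of 3 naive mice were the controls. Leukemic cells and Tregs both carry GFP in this model, and the labels do not give the gate of the sort. A single library was made for each mouse from amplified RNA of the sorted Tregs. Values are RPKM, that is reads scaled by feature length and by the reads of the library, so levels of different genes can be compared per length.

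Type I interferons, the IFN-α subtypes and IFN-β, bind a receptor made of Ifnar1 and Ifnar2. The kinases Jak1 and Tyk2 then act on STAT proteins, and a complex that holds Stat2 and Irf9 binds the interferon-stimulated response element (ISRE) in target promoters. The gamma-activated site (GAS) is the main promoter element of the response to IFN-γ. Many interferon-stimulated genes are expressed at a basal level in T cells without infection, and several are induced by both types of interferon.

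The letters of both elements were searched on both strands in the 250 bases before the RefSeq start site, using the RefSeq promoter sequences of GRCm38.p6. The ISRE was searched as TTTC, any 2 bases and TTTC, or as the reverse complement GAAA, any 2 bases and GAAA. The GAS was searched as TTC, any 3 bases and GAA, and the 2 motifs were counted independently of any overlap. A promoter sequence was at hand for 26 of the 36 genes. A gene with several start sites had several windows, and it counted if any of them held the letters. ISRE letters occurred in 9 of these 26 genes (34.6%), compared with 3.46% of 27025 genes with a promoter sequence. GAS letters occurred in 7 of 26 (26.9%), compared with 8.13% of the 27025 genes. The following stretches are shown because they belong to the genes on which the comparison turns and to well-known interferon targets whose groups overlapped. Capitals mark the ISRE letters, overlapping matches included, or for Isg20 the GAS letters, since its 3 windows held no ISRE letters. The other windows of Isg20 held no GAS letters.
Ifit1, chr19:34640789-34640828, plus strand: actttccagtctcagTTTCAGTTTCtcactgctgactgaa
Ifit3, chr19:34583392-34583431, plus strand: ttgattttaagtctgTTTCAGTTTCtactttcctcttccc
Stat2, chr10:128270261-128270300, plus strand: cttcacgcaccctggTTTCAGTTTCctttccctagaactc
Isg15, chr4:156200860-156200899, minus strand: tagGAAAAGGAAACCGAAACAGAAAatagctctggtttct
Bst2, chr8:71537572-71537611, minus strand: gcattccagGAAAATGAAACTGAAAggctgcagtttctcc
Oas3, chr5:120777710-120777749, minus strand: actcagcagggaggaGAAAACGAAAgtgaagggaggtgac
Isg20, chr7:78913336-78913374, plus strand: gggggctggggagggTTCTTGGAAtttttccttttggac
Ifit1, Ifit3 and Stat2 share the same ISRE letters, TTTCAGTTTC. Over the 9 genes with ISRE letters, the nearest match of each gene began 14 to 222 bases before the start site. A match of letters is not evidence of binding, and no match says only that these letters are not in this window.

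The libraries differed in depth. The reads estimated from the steps of the values were 7615102, 829231 and 2286373 in CML replicates 1, 2 and 3 and 5189090, 8772853 and 9753433 in naive replicates 1, 2 and 3. CML replicate 2 also stood apart in that features with LOC names held 36.6% of its summed RPKM, compared with 2.17% to 10.9% in the other libraries. The median interferon-stimulated gene had an estimated 46.4 reads in CML replicate 2 and between 161 and 519 reads in each of the other libraries, and such estimates and floors cover counting error only. All 9 Treg and T cell identity genes had reads in every library, and their summed RPKM ran from 2017 to 2773 in CML and from 1979 to 2216 in naive Tregs. In bulk RNA of this kind, fewer cells of a type and less RNA per cell cannot be told apart.

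The first comparison was whether interferon-stimulated genes differed between CML and naive Tregs. None of the 34 genes passed the adjusted test. Isg20, Ifit1, Oas2, Ifi35 and Eif2ak2, 5 genes in all, were higher in all 3 CML than in all 3 naive libraries, and the receptor chain Ifnar1 was lower in all 3. The remaining 28 genes overlapped between the groups. Most differences were small, with a median log2 fold change of 0.25 for CML over naive and a range from -1.02 (Oasl2) to 1.32 (Oas2).

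Differences were tested in limma on log2(RPKM + 1), and a gene was called at a Benjamini-Hochberg adjusted p under 0.05 over all genes tested and a fold of at least 1.5. By this rule 0 of the 34 genes were called, compared with 0.172% of all genes tested (0.0431% higher and 0.129% lower in CML Tregs). The smallest adjusted p in limma was 0.238, for Isg20. At an unadjusted p under 0.05 with the same fold, 3 of 34 genes (8.82%) were higher in CML Tregs (Isg20, Ifit1 and Oas2), compared with 2.61% of all genes, and 0 were lower, compared with 5.94% of all genes. Without the fold threshold Ifi35 joined them, making 4 genes, compared with 2.92% of all genes that were higher by this rule. The count of 3 became 1 without naive replicate 1, 5 without naive replicate 3, 7 without CML replicate 2, and 6 or 7 under the other scalings. The 5 genes without overlap made up 14.7% of the list, compared with 4.84% of all genes that were higher without overlap, and the 1 lower gene made up 2.94%, compared with 12.2%.

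The log2 fold change was above 0 in 23 of 34 interferon-stimulated genes (67.6%), compared with 35.7% of all genes tested. The median over all genes tested was -0.18, so the median of the list lay 0.42 above it. This gap ran from 0.23 without naive replicate 2 to 0.55 without naive replicate 3 over the 16 alternative analyses. The values over all genes depended on the scaling. Their median was -0.01 after quantile normalization and -0.05 at the same sum outside LOC names. Of all genes past both the unadjusted p and the fold, 30.5% were higher in the main analysis, compared with 51.4% and 48.7% under these 2 scalings. The counts for the list describe 3 mice against 3 and were not tested as a set. In exact 2-sided permutation tests 3 libraries against 3 cannot give a p below 0.1, and each of the 6 genes without overlap had this value.

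**Figure D1:**
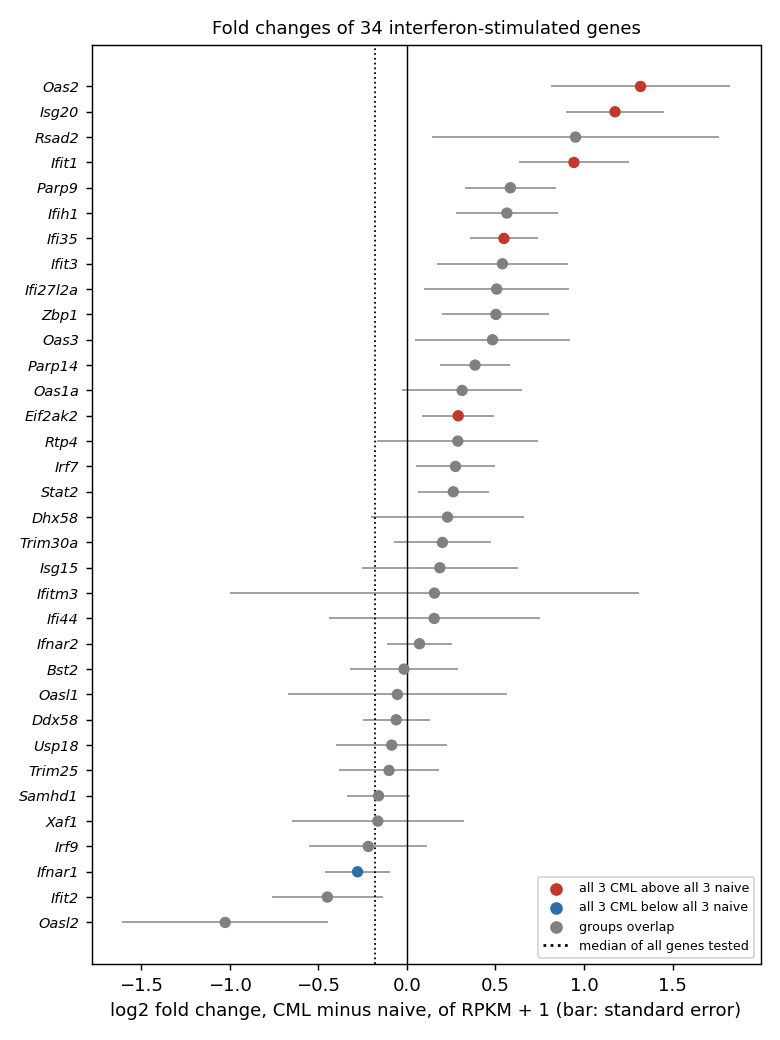
Log2 fold change of CML over naive Tregs for each of the 34 interferon-stimulated genes (points) with the standard error of the limma fit (bars), ordered by fold change, and the median of all genes tested (-0.18) as a dotted line. Red and blue points mark genes whose CML libraries all lie above or below the naive libraries, and most points lie above the dotted line, with Oas2 and Isg20 highest and Oasl2 lowest.

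Neither receptor chain passed the test. Ifnar1 (16, 91485238 to 91507441, plus strand), the chain that carries Tyk2, had 56.7, 45.1 and 55.1 RPKM in the CML mice, in the order of replicates 1 to 3 used throughout, and 70.6, 60.2 and 59.7 RPKM in the naive mice. The groups did not overlap, but the gap between the nearest libraries was small, and the log2 fold change was -0.28 ± 0.18 (SE, n = 3 against 3, limma adjusted p = 0.646). Ifnar2, the chain with the higher affinity for interferon, had 92.9, 75.5 and 69.1 RPKM in the CML mice and 73.7, 67.8 and 83.3 RPKM in the naive mice. Its means of 79.2 ± 12.3 (SD, n = 3) and 74.97 ± 7.82 RPKM overlapped within the spread between mice. Both receptor genes were thus detected in every library.

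The transcription factors of the pathway overlapped between the groups. Stat2 had 48.1, 54.1 and 50.8 RPKM in the CML mice and 42.3, 35.1 and 50.8 RPKM in the naive mice (log2 fold change 0.26 ± 0.20, limma adjusted p = 0.692). Irf9, which gives the complex its DNA contact, had 83.2, 32.1 and 53.5 RPKM in the CML mice and 63.3, 51.5 and 69.7 RPKM in the naive mice. Its CML libraries held both the highest and the lowest value of all 6, and the log2 fold change of -0.22 ± 0.33 was smaller than its error. Irf7, which amplifies interferon production and is itself interferon-induced, had 55.1, 55.5 and 82.3 RPKM in the CML mice and 53.6, 44.6 and 58.9 RPKM in the naive mice (0.27 ± 0.22, limma adjusted p = 0.701).

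Among the 4 sensors of foreign or misplaced nucleic acids, 3 had a log2 fold change above 0 and none passed the test. Zbp1, a sensor of left-handed nucleic acid, was the most abundant with 134, 66.7 and 125 RPKM in the CML mice and 64.4, 62.8 and 95.9 RPKM in the naive mice. CML replicate 2 was near the lower naive libraries, and the log2 fold change was 0.50 ± 0.30 (limma adjusted p = 0.622). Ifih1, which encodes MDA5, a receptor for long double-stranded RNA, ranged from 16.8 to 25.4 RPKM in the CML mice and from 12.6 to 18.0 RPKM in the naive mice. Ddx58, which encodes RIG-I, had means of 38.1 ± 2.67 and 39.8 ± 3.90 RPKM (SD, n = 3), and its log2 fold change of -0.06 turned positive under 2 of 3 other scalings. Dhx58, which encodes the related LGP2, spanned 5.82 to 17.2 RPKM over the 6 libraries without a separation of the groups.

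Enzymes of the OAS family make 2′-5′ oligoadenylates that activate RNase L. The 5 OAS and OAS-like genes of the list had log2 fold changes of both signs. Oas2 (5, 120730333 to 120749853, minus strand) had 4.98, 14.9 and 6.52 RPKM in the CML mice and 1.75, 3.25 and 2.93 RPKM in the naive mice. Every CML library exceeded every naive library, and the highest value came from CML replicate 2, the library with the fewest reads, where it stood for an estimated 48.9 reads. The log2 fold change was 1.32 ± 0.51 (limma adjusted p = 0.470), and it was 0.90 without CML replicate 2.

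Oasl2, an OAS-like protein, had 6.99, 4.70 and 2.41 RPKM in the CML mice and 16.1, 4.08 and 14.1 RPKM in the naive mice. Naive replicates 1 and 3 were high and naive replicate 2 was within the CML range. The log2 fold change was -1.02 ± 0.58 (limma adjusted p = 0.605), and it was -1.58 without naive replicate 2. Oas1a, Oas3 and Oasl1 had log2 fold changes of 0.31, 0.48 and -0.05, with overlap between the groups, and that of Oasl1 turned positive under 2 of 3 other scalings. Oasl1 was low throughout, between 0.573 and 4.27 RPKM.

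The IFIT proteins bind viral RNA and block its translation, and their 3 genes lie close together on chromosome 19. Ifit1 (19, 34640871 to 34650009, plus strand) had 23.0, 19.9 and 23.3 RPKM in the CML mice and 7.75, 11.1 and 15.2 RPKM in the naive mice. The CML libraries lay close together and above every naive library, with means of 22.1 ± 1.86 and 11.4 ± 3.76 RPKM (SD, n = 3). The log2 fold change was 0.94 ± 0.31 (limma adjusted p = 0.391).

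The neighbors of Ifit1 did not share this separation. Ifit3 ranged from 15.5 to 21.9 RPKM in the CML mice and from 8.85 to 21.5 RPKM in the naive mice, with naive replicate 3 at the CML level. Ifit2 went the other way, with means of 17.1 ± 5.35 RPKM in the CML mice and 23.0 ± 3.42 RPKM in the naive mice (log2 fold change -0.45), again with overlap. Ifit1 and Ifit3 carry the same ISRE letters in the stretches given above, and no difference between the genes of the family was tested.

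**Figure D2:**
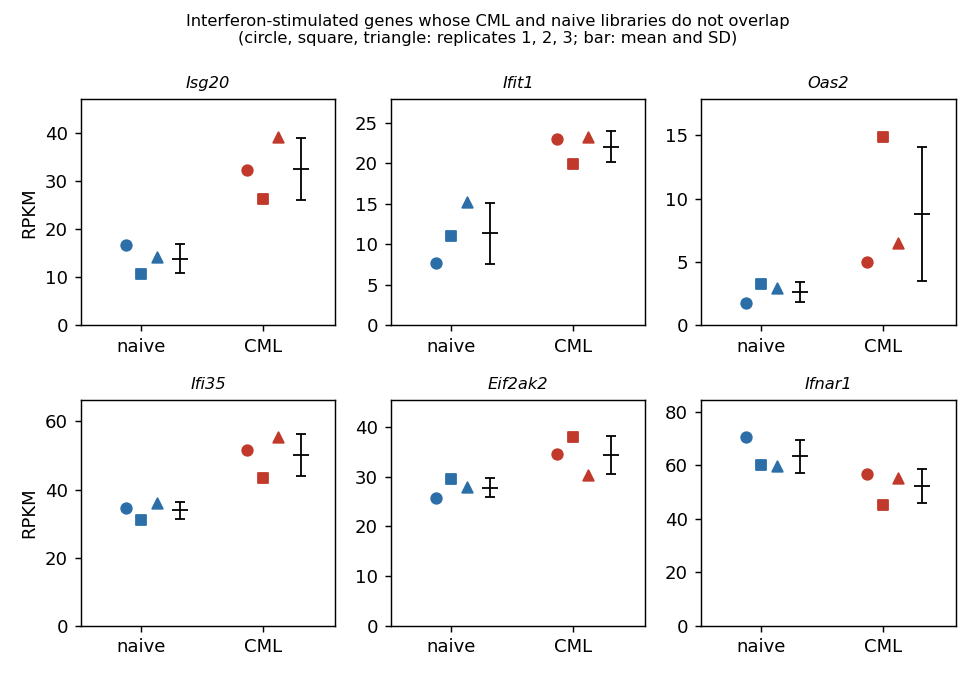
RPKM of the 6 interferon-stimulated genes whose CML and naive libraries do not overlap, with a point for each library and the mean ± SD of 3 mice in each group. Isg20, Ifit1, Oas2, Ifi35 and Eif2ak2 are higher in CML and Ifnar1 is lower.

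Isg20 showed the smallest p of the list. Isg20 (7, 78913424 to 78920396, plus strand), which encodes an exonuclease that degrades single-stranded RNA, had 32.3, 26.4 and 39.2 RPKM in the CML mice and 16.7, 10.8 and 14.3 RPKM in the naive mice. The lowest CML library was well above the highest naive library, and the means were 32.6 ± 6.43 and 13.9 ± 2.95 RPKM (SD, n = 3). The log2 fold change was 1.18 ± 0.27 (limma adjusted p = 0.238). Over the 16 alternatives it stayed between 1.02 and 1.32, with limma adjusted p from 0.101 to 0.721. In CML replicate 2 the value stood for an estimated 23.8 reads.

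Eif2ak2 (17, 78852564 to 78882573, minus strand), which encodes PKR, the kinase that halts translation upon binding double-stranded RNA, had 34.6, 37.9 and 30.3 RPKM in the CML mice and 25.7, 29.6 and 27.99 RPKM in the naive mice. The groups were separated by less than 1 SD of the CML libraries, and the log2 fold change was 0.29 ± 0.20 (limma adjusted p = 0.671). Rsad2, which encodes viperin, had 4.34, 14.4 and 12.5 RPKM in the CML mice and 10.3, 0.523 and 7.91 RPKM in the naive mice. Its log2 fold change of 0.95 ± 0.81 rested on naive replicate 2, the lowest library, and was 0.05 without it.

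Samhd1, which encodes an enzyme that removes deoxynucleotides, was the most abundant gene of the list with 519.8, 397 and 592 RPKM in the CML mice and 523, 597 and 546 RPKM in the naive mice. Its log2 fold change was -0.16 ± 0.18 and changed sign under 1 of 3 other scalings. Bst2, the tetherin gene, ranged from 57.7 to 82.6 RPKM in the CML mice and from 45.9 to 104 RPKM in the naive mice, and its log2 fold change of -0.02 was positive under all 3 other scalings. Ifitm3 was not detected in every library. It was at 0 in CML replicate 2 and naive replicate 1, where 3 reads would have given 5.34 and 0.853 RPKM, and it reached 15.8 RPKM in CML replicate 3.

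The ISG15 system attaches the ubiquitin-like protein Isg15 to other proteins, and its 3 genes overlapped between the groups. Isg15 itself had 18.6, 9.93 and 11.7 RPKM in the CML mice and 9.52, 7.27 and 20.3 RPKM in the naive mice (log2 fold change 0.19 ± 0.44, limma adjusted p = 0.902). The highest and the lowest value were both naive. Usp18, the protease that removes Isg15 and also damps Ifnar2 signaling, and Trim25, a ligase that acts on RIG-I, had log2 fold changes of -0.08 and -0.10, which turned positive under 2 and 1 of the 3 other scalings.

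Both PARP genes of the list had log2 fold changes above 0 without passing the test. Parp9, which acts with Dtx3l in ubiquitin and ADP-ribose transfer, had 44.9, 39.1 and 49.2 RPKM in the CML mice and 23.7, 25.6 and 40.8 RPKM in the naive mice. Only naive replicate 3 reached into the CML range, and the log2 fold change was 0.58 ± 0.26 (limma adjusted p = 0.522). Parp14 had means of 91.6 ± 12.6 and 70.1 ± 12.6 RPKM (SD, n = 3), again with naive replicate 3 above CML replicate 2.

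Of the other interferon-induced genes, Ifi35 was separated. Ifi35 (11, 101448407 to 101458698, plus strand), whose protein pairs with Nmi, had 51.6, 43.4 and 55.4 RPKM in the CML mice and 34.5, 31.0 and 36.1 RPKM in the naive mice. The log2 fold change was 0.55 ± 0.19 (limma adjusted p = 0.425), and it stayed between 0.47 and 0.70 over the 16 alternatives. Trim30a had 113, 67.9 and 131 RPKM in the CML mice and 88.3, 71.3 and 105 RPKM in the naive mice (0.20 ± 0.27, limma adjusted p = 0.818). Ifi27l2a, Ifi44, Rtp4 and Xaf1 had log2 fold changes of 0.51, 0.15, 0.29 and -0.16, and the groups overlapped in each.

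**Figure D3:**
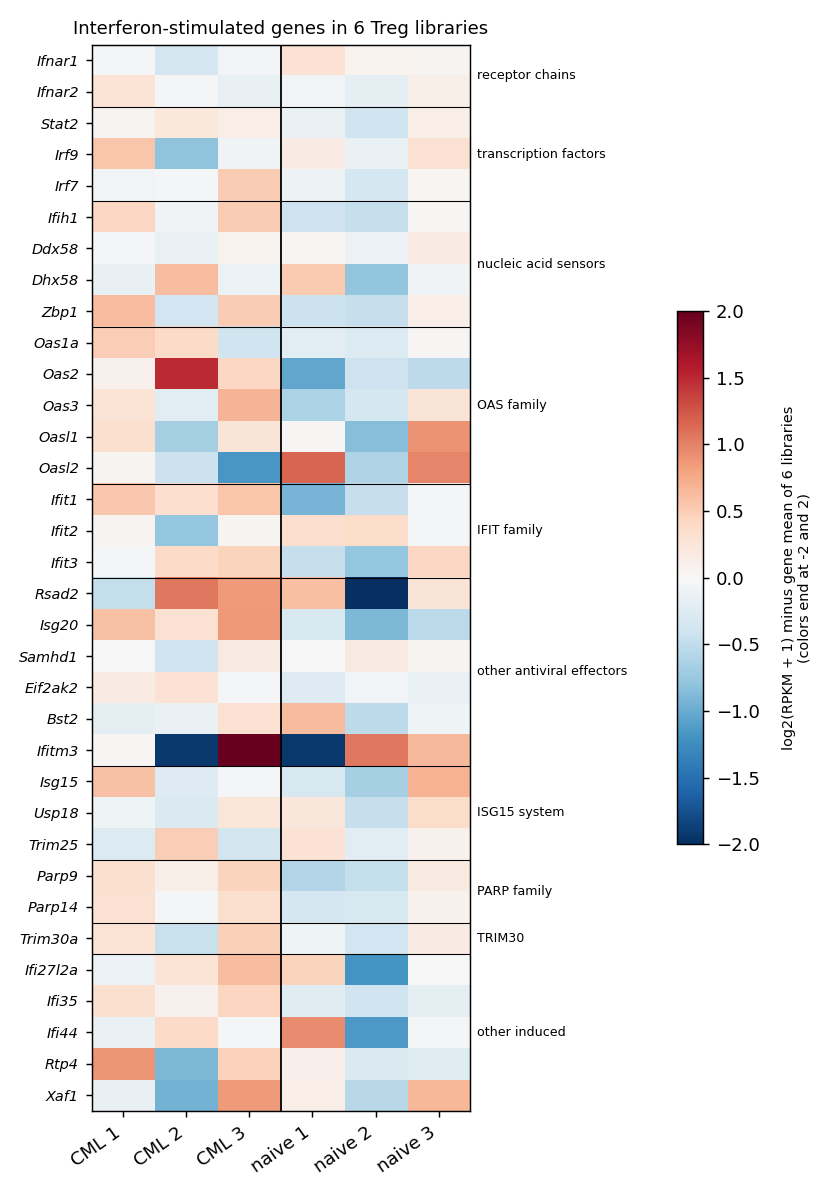
Log2(RPKM + 1) of the 34 interferon-stimulated genes in each of the 6 libraries relative to the mean of that gene over the 6 libraries, with genes in rows ordered by role, red for higher and blue for lower values. Naive replicate 2 is lowest for 16 genes and CML replicate 3 is highest for 13.

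The mice differed among themselves across the whole list. Naive replicate 2 had the lowest value of all 6 libraries in 16 of 34 genes, compared with 8.13% of all genes tested, and CML replicate 2 had it in 9 (26.5%), compared with 47.1% of all genes. CML replicate 3 had the highest value in 13 genes (38.2%), compared with 26.3% of all genes. The median gene of the list, relative to the naive mean, stood at 0.28, 0.05 and 0.41 on the log2 scale in CML replicates 1, 2 and 3 and at 0.02, -0.21 and 0.22 in naive replicates 1, 2 and 3. On this scale the groups overlapped, since CML replicate 2 lay below naive replicate 3. Relative to the median of all genes in the same library, the values were 0.32, 0.48 and 0.41 in CML and -0.0050, -0.22 and 0.24 in naive Tregs, and the CML libraries lay above the naive libraries. The all-gene median itself, relative to the naive mean, was -0.42 in CML replicate 2 and from -0.04 to 0.02 in the other libraries. CML replicate 2 thus moved from 0.05 to 0.48 by this subtraction, and it is the library with the fewest reads. The separation on this scale therefore depends on how that library is scaled.

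Within the groups, correlations between the genes of the list were mostly above 0. After centering each gene within its group, the median correlation over the 561 pairs of genes was 0.33 across the 6 libraries, and 70.6% of the pairs were above 0. Ddx58, Usp18 and Oasl1 followed the mean of the other genes most closely (r = 0.99, 0.96 and 0.96). Oasl1 rests on few reads, an estimated 1.42 in CML replicate 2, where 3 reads would have given 1.66 RPKM. Eif2ak2 went against the mean of the other genes (r = -0.68), as did Oas1a, Trim25 and Oas2. Genes outside the list with the most similar pattern were Cnep1r1, Cox11, Cxcl10, D11Wsu47e and Pcgf5, with r of at least 0.99 after rounding to 2 decimals, and 113 genes had r above 0.9. Cxcl10, an interferon-induced chemokine, had 11.5, 8.12 and 19.1 RPKM in the CML mice and 7.79, 2.69 and 12.1 RPKM in the naive mice. These are descriptions over 6 libraries that also share depth and composition, and no p is given. With so few libraries a high r can also arise by chance. The same values were not computed for sets of other genes, so more shared variation in the list than elsewhere is not shown.

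The letters of the ISRE were set beside the fold changes. Of the 9 genes with ISRE letters in the window, 8 had a log2 fold change above 0, with a median of 0.31 and a range from -0.02 (Bst2) to 0.95 (Rsad2). Of the 17 genes with a window but without ISRE letters, 8 had a log2 fold change above 0, and the median was -0.05. Isg20 and Ifi35 were among the latter. Oas2 had no promoter sequence at hand. The difference between these sets was not tested.

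The rest of the pathway was examined next, in a list of 99 further genes of which 96 matched a row and 74 were tested. None of the 74 was called, 5 were higher and 3 lower at an unadjusted p under 0.05 with a fold of at least 1.5, compared with 2.61% and 5.94% of all genes. Without overlap 10 were higher and 12 lower, compared with 4.84% and 12.2% of all genes. Their median log2 fold change was -0.01, compared with -0.18 over all genes. The genes of the type I interferons were almost without reads. Of 18 type I interferon genes, 16, including every Ifna gene and Ifnb1, had no reads in any library, and only Ifnk and Ifnz had some. In CML replicate 2, 3 reads would have given 4.82 RPKM for Ifnb1.

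The kinase genes Jak1 and Tyk2 had log2 fold changes of -0.18 and -0.03, and that of Tyk2 turned positive under all 3 other scalings.

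The receptor chains for IFN-γ had log2 fold changes of opposite sign. Ifngr1, the ligand-binding chain, had 673, 504 and 582 RPKM in the CML mice and 279.6, 311 and 326 RPKM in the naive mice. Its log2 fold change was 0.93 ± 0.16 (limma adjusted p = 0.0967), and it was called in 4 of the 16 alternatives, namely the 3 other scalings and library weights, with a smallest adjusted p in limma of 0.0204. Ifngr2, the signaling chain, had 8.81, 10.9 and 17.1 RPKM in the CML mice and 24.9, 22.7 and 23.7 RPKM in the naive mice (-0.95 ± 0.30, limma adjusted p = 0.369). Il10rb, a chain shared by the receptors of IL-10 and type III interferons, was also lower in all CML libraries (-0.38). Ifng had 17.7, 18.0 and 58.9 RPKM in the CML mice and 20.6, 21.4 and 19.1 RPKM in the naive mice, so that CML replicate 3 alone was high.

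Among the negative regulators, Socs1 and Socs3, which block the receptor kinases, were higher in all 3 CML libraries. Socs1 had 51.0, 35.9 and 49.97 RPKM in the CML mice and 27.1, 21.2 and 23.6 RPKM in the naive mice (0.89 ± 0.23, limma adjusted p = 0.273). Socs3 had 56.2, 78.3 and 83.2 RPKM in the CML mice and 42.1, 44.4 and 38.1 RPKM in the naive mice (0.77 ± 0.21, limma adjusted p = 0.282). Ube2l6 was listed with these genes but belongs to the ISG15 system, as it encodes the conjugating enzyme for Isg15. It had 34.4, 54.8 and 45.4 RPKM in the CML mice and 19.6, 12.1 and 27.3 RPKM in the naive mice (1.196 ± 0.33, limma adjusted p = 0.296). It was thus separated between the groups while Isg15 was not. Ptpn6, a phosphatase, was lower in all CML libraries (-0.41).

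Ikbke, a kinase that acts upstream of interferon production, was lower with 88.3, 64.8 and 87.4 RPKM in the CML mice and 199, 192 and 163 RPKM in the naive mice. Its log2 fold change was -1.201 ± 0.18 (limma adjusted p = 0.0712), and it was called in the same 4 alternatives as Ifngr1. The DNA sensor gene Mb21d1, which encodes cGAS, was low, from 2.92 to 6.77 RPKM in the CML mice and from 2.15 to 2.81 RPKM in the naive mice. It was higher in all CML libraries, but by a small gap (log2 fold change 0.52 ± 0.48, limma adjusted p = 0.727).

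Other interferon-induced genes outside the list had log2 fold changes of both signs. Of the 44 tested, 21 were above 0 and the median was -0.02, compared with 35.7% above 0 and a median of -0.18 over all genes. Ly6a, which encodes Sca-1, had 160.2, 134 and 157 RPKM in the CML mice and 58.5, 67.0 and 78.5 RPKM in the naive mice (1.14 ± 0.17, limma adjusted p = 0.0729, called in the same 4 alternatives). Dtx3l, the partner of Parp9, had 87.7, 90.2 and 92.7 RPKM in the CML mice and 58.2, 57.8 and 78.2 RPKM in the naive mice (0.49, limma adjusted p = 0.451). Lgals3bp and Trim21 were also higher in all CML libraries, with log2 fold changes of 0.39 and 0.27.

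A further 8 genes of the same set were lower in all CML libraries, as were 12.2% of all genes tested. Parp11 had 16.2, 11.4 and 10.1 RPKM in the CML mice and 22.6, 31.8 and 30.0 RPKM in the naive mice (-1.11 ± 0.29, limma adjusted p = 0.273). Sp100, a nuclear body protein gene, had 258, 166 and 202 RPKM in the CML mice and 269.7, 335 and 300.3 RPKM in the naive mice, and its relative Sp110 had a log2 fold change of -0.42. Mndal, of the interferon-inducible HIN family, had 319, 249 and 289 RPKM in the CML mice and 384, 427 and 411 RPKM in the naive mice (-0.52), and its relative Pyhin1 had -0.19. Slfn2 and Slfn5 of the Schlafen family had -0.43 and -0.46, and Znfx1 had -0.40.

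**Figure D4:**
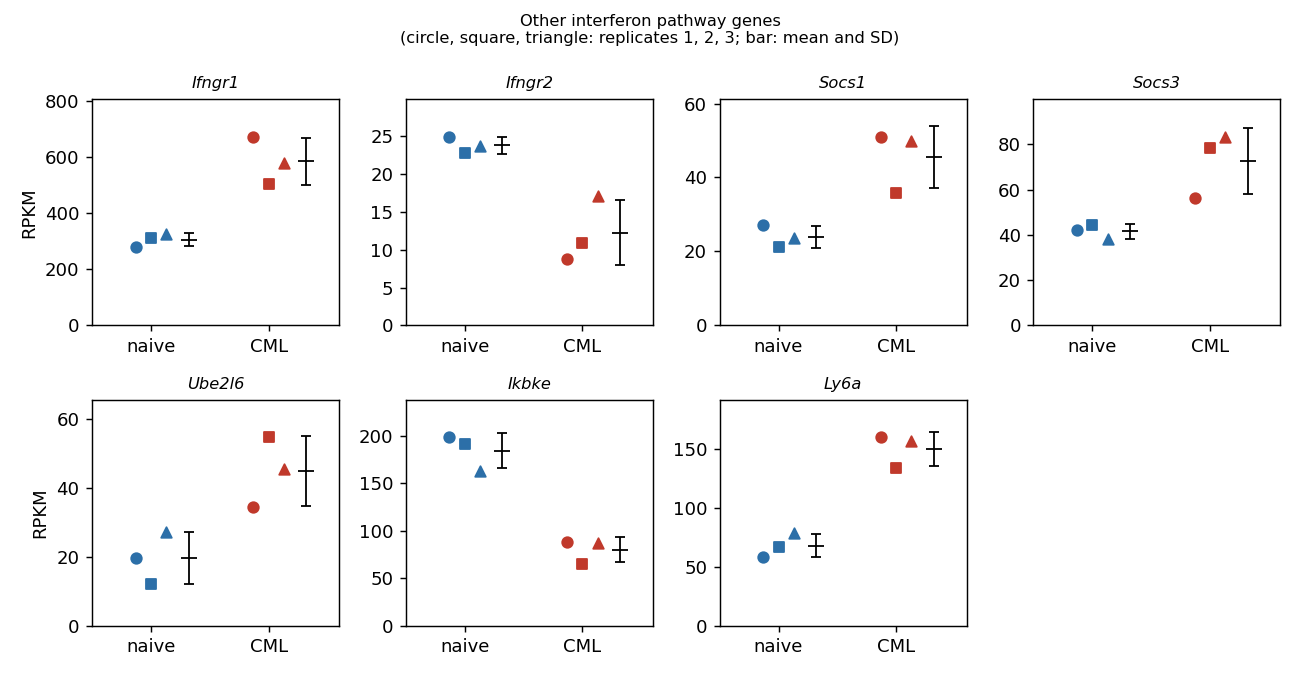
RPKM of 7 genes of the interferon pathway outside the list of 34, with a point for each library and the mean ± SD of 3 mice in each group. Ifngr1, Socs1, Socs3, Ube2l6 and Ly6a are higher in all CML libraries and Ifngr2 and Ikbke are lower.

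Transcripts of other cell types were measured beside these results. Plasmacytoid dendritic cells are rich in several of the listed genes, Bst2 and Irf7 among them. All 6 of their markers (Siglech, Klk1, Cox6a2, Tcf4, Irf8 and Flt3) had reads in every library, and the summed RPKM was 686.9, 619 and 674 in CML and 1015, 415 and 629 in naive Tregs. Siglech, the defining marker, had 144, 137 and 129 RPKM in the CML mice and 222, 91.9 and 143 RPKM in the naive mice. In the sum naive replicate 1 was thus highest and naive replicate 2 lowest. Siglech, Klk1, Tcf4 and Irf8, 4 of the 6 markers, were ordered from high to low as naive replicates 1, 3 and 2, while Cox6a2 was highest in CML replicate 2 and Flt3 in naive replicate 3, and 0 of 6 were called in limma, and 0 passed the unadjusted rule used above. The same order of the naive libraries was seen in 9 of 34 interferon-stimulated genes (26.5%), among them Bst2, Isg20, Oasl2 and Rsad2, compared with 20.01% of all genes tested. Naive replicate 2 was the lowest of the naive libraries in 24 of the 34 genes (70.6%), compared with 31.6% of all genes. A covariate made of the mean of the 6 markers was chosen after seeing the data. With it, the log2 fold changes of Isg20, Ifit1 and Oas2 were 1.18, 0.94 and 1.31, compared with 1.18, 0.94 and 1.32 without it. The 6 markers had a median log2 fold change of -0.05 between the groups. This covariate could therefore hardly move a group difference, and the part of these cells in the values was not tested.

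**Figure D5:**
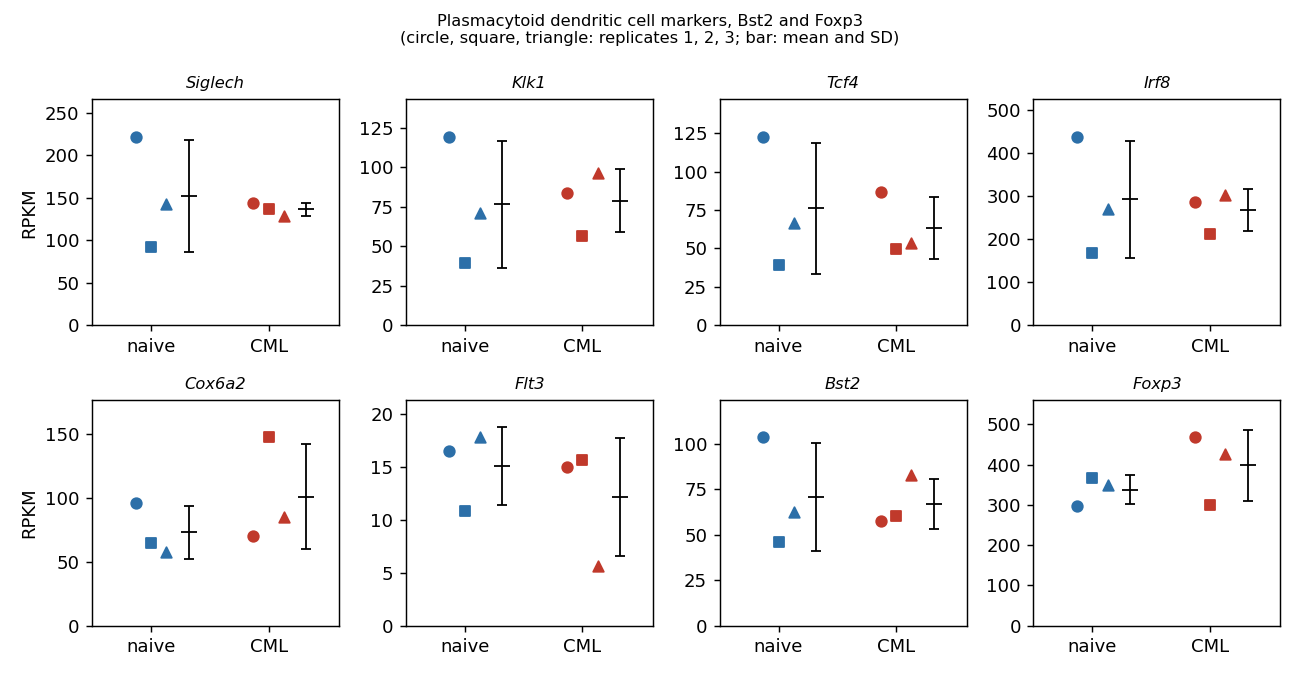
RPKM of the 6 plasmacytoid dendritic cell markers, of Bst2 and of the Treg gene Foxp3 in each library (symbols), with the mean ± SD of 3 mice in each group. Naive replicate 1 is the highest library for Siglech, Klk1, Tcf4, Irf8 and Bst2, and the CML libraries lie within the naive range for Siglech.

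Markers of other cells varied as well. The summed RPKM of 13 neutrophil genes was 10.2, 207 and 223 in CML and 30.8, 53.9 and 51.3 in naive Tregs, with 3 to 8 of the 13 at 0 in each library. All 8 neutrophil genes tested had a log2 fold change above 0, and 1 of them, Elane (1.68), passed the unadjusted rule. The 9 erythroid genes with a row summed to 132, 41.8 and 249.99 RPKM in the CML mice and 29.6, 30.9 and 5.93 RPKM in the naive mice, so that all CML libraries were higher. Of the 7 erythroid genes tested, 4 (Hba-a1, Hbb-bs, Hbb-bt and Car2) passed the unadjusted rule as higher in CML, the median log2 fold change was 2.08, and 0 were called in limma. The 8 monocyte and macrophage genes summed to 76.2 to 137 RPKM in the CML mice and 115 to 135 RPKM in the naive mice, and Fcgr1 was at 0 throughout. The B and plasma cell genes summed to 358 to 502 RPKM in the CML mice and 484 to 629 RPKM in the naive mice. Nearly all of this was Ighm, the IgM heavy chain gene, with 350.2 to 499 RPKM in CML and 475 to 620.2 RPKM in the naive mice. Cd79b reached 8.80 RPKM, Cd79a 7.28 RPKM and Ms4a1 2.73 RPKM, each with at least 1 library at 0, and Pax5 was at 0 in every library. The 4 NK cell genes summed to at most 5.64 RPKM. The 2 CD8 T cell genes summed to 59.4, 51.1 and 74.2 RPKM in the CML mice and 58.7, 26.2 and 36.4 RPKM in the naive mice. Of 5 stem and progenitor genes 3 were tested, and 1 had a log2 fold change above 0. It was Gata2 (1.88), which passed the unadjusted rule as higher in CML. The part of the transcripts of these other cells in the values of the interferon-stimulated genes was not tested.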

How the data were processed

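RNA of BM Tregs from 3 CML and 3 naive mice was measured. Libraries were prepared with the SMART-Seq v4 kit and sequenced in single-end reads on a NextSeq instrument. The authors used SeqMan NGen for assembly and ArrayStar for analysis, and the builds in the submitters' processing notes are GRCm38 and mm10. The paper's methods also name DESeq2, which was not run here because the files hold no counts. The values deposited by the authors were read as RPKM, a unit inferred from the values and not named in the text. In microRNA and small nucleolar RNA genes, 30.5% to 59.0% of the products of value and length were whole multiples of a fixed step within 0.05 of a step, compared with 10% by chance, and the step gave the estimated reads. A value of 0.001 marks no reads and was set to 0. Whether reads were counted by strand is not given in the sources used here, so overlapping genes cannot be told apart.

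The test was that of limma 3.58.1 (R 4.3.3), run on log2(RPKM + 1) with a trended prior variance and Benjamini-Hochberg adjustment, for the 13923 features with a mean of at least 1 RPKM. Fold changes on this scale understate those of low genes. The replicates are separate mice with a single library each. The p-values rest on the spread between these libraries, in which mouse, depth and amplification cannot be told apart. The fit was tested on simulated data, and it missed many true changes at the spread of these libraries. A gene that was not called is therefore not shown to be unchanged. The list and the genes of the pathway and marker lists were chosen with earlier results of these data known. Values in every library are given for genes past an unadjusted p under 0.05 and a fold of 1.5, genes without overlap between groups, the 6 largest changes, receptors and transcription factors, and the 3 most abundant genes. Other genes are given by ranges, means or fold changes. For genes without overlap outside the list, some are given by fold change only. Positions come from GENCODE M21 (GRCm38). Alternatives covered the pseudocount, the filter, 3 scalings, the variance model, library weights, a replicate block, each library left out, and a marker covariate. Python 3.11.15 with numpy 2.4.6, pandas 2.3.3, scipy 1.17.1 and matplotlib 3.10.9 was used for the other steps. A gene that falls under the rule for named genes is not reported here.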

Additional observations from a re-analysis of the deposited data

How the results depend on the processing

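None of the 34 genes was called in the main analysis or in any of the 16 alternatives, and 20 of 34 kept the sign of their log2 fold change in all of them. Ifi44 and Oasl1 were not tested under the stricter filter. The other 14 changed sign in at least one, 6 of them under another scaling. The median log2 fold change stayed between 0.05 and 0.39, and from 0.05 (without naive replicate 2) to 0.37 (without naive replicate 3) when each library was left out. The number higher at an unadjusted p under 0.05 with a fold of 1.5, 3 in the main analysis, was 6 after quantile normalization, 6 at the same 75th percentile and 7 at the same sum outside LOC names, and from 1 (without naive replicate 1) to 7 (without CML replicate 2) when each library was left out. The number lower ran from 0 to 1, the latter being Oasl2 without naive replicate 2. Over all genes tested, 6 were called higher and 18 lower. These counts were 0 and 1 without the filter, 23 and 30 after quantile normalization, 21 and 32 at the same 75th percentile, 0 and 11 without the variance trend, 17 and 28 with library weights, and 1 and 9 with the marker covariate, which was chosen after seeing the data. The stricter filter gave 11 lower and the sum outside LOC names 19 higher. Leaving out each library gave 0 to 10 higher and 0 to 17 lower. The cause of these shifts was not tested. Of the genes past both the unadjusted p and the fold, 30.5% were higher in the main analysis, 51.4% after quantile normalization, 48.7% at the same sum outside LOC names and 46.4% without CML replicate 2, and the median over all genes moved from -0.18 to -0.01, -0.05 and -0.03. With the replicate block, 0 genes were called higher and 1 lower, and 0 of the 34. Replicate numbers belong to different mice. The deviations of same-numbered libraries had r near 0 (-0.0048, -0.0016 and -0.0192), compared with -0.0419 to 0.0518 for differently numbered libraries. The numbers were not treated as pairs in the main analysis. These correlations also hold differences in depth, and a shared preparation of same-numbered libraries was not tested. Depth limits low genes most, since CML replicate 2 had an estimated 829231 reads, and the 34 genes had a median of 46.4 reads there.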
